A study of Mus musculus with 20 samples.

Results

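Across 20 mouse brain libraries, 1103 of 1108530 autosomal CpGs (0.0995%) were methylated at 35 to 65% in every library. These intermediately methylated CpGs were the positions of chromosomes 1 to 19 that were listed at both ages and never left that band, limits included. They were chosen by their own percentages in all 20 libraries, so their levels are given as a description. A CpG is a cytosine followed by a guanine, and each listed position counts as 1 CpG, so the strands of a CpG are counted apart where both were listed. A further 79450 CpGs had an overall mean of 35 to 65% but left the band in at least 1 library, and they serve as the set compared with these CpGs.

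The DNA came from brain homogenate enriched for microglia, the immune cells of the brain, and methylation was read by reduced representation bisulfite sequencing, which samples CpG-rich fragments. HEM mice overexpressed full-length human wild-type α-synuclein from a transgene on the X chromosome driven by the murine Thy-1 promoter, and WT mice were the controls. The older groups, at 13 months, hold 8 libraries from HEM mice and 4 from WT mice, and the younger ones, at 3 months, hold 4 of each genotype. All were labelled with the B6D2F1/J background except HEM replicate 3 at 13 months, whose background is not given, and B6D2F1/J mice descend from a cross of C57BL/6J with DBA/2J. Thy-1 promoters drive expression mainly in neurons, so the libraries hold DNA of cells that need not express the transgene. The design text gives 3 as the number of young WT animals, but 4 libraries carry that label and all were used. Methylation percentages give no expression level of marker genes, so the enrichment for microglia was not checked with them.

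Methylation of most CpGs is near 0 or near 100% in a pure cell type, because both alleles carry the same state in nearly every cell. Intermediate values arise at imprinted genes, where only the allele from the mother or only that from the father is methylated, and also where cells or alleles differ. In DNA from a mixture of cells, methylation of 1 allele in all cells and methylation of both alleles in part of the cells cannot be told apart. Imprinted loci carry control regions whose allelic methylation is set in the egg or sperm and kept in body tissues, including brain.

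Few of these CpGs lay in promoters, the only places for which sequence is shown here. Of the CpGs on the 18 autosomes with promoter windows, 16 lay between 250 bases before and 50 bases after a RefSeq gene start, in windows of 15 genes. That is 1.49% of them, against 1.51% of the comparison set and 13.3% of all CpGs there, so promoters are not typical places of the set. The 5 printed here are the windows of protein-coding genes in which at least 4 listed CpGs had an overall mean of 35 to 65%, a choice made after their values were seen. Each is written 5′ to 3′ on the gene's strand, from RefSeq with build GRCm38.p6, and capitals mark the CpG that stayed in the band in all 20 libraries. The windows are chr1:55362679-55362978 for Boll (minus strand), chr4:117849100-117849399 for Slc6a9 (plus strand), chr8:123185985-123186284 for Dpep1 (plus strand), chr14:33589020-33589319 for Ptpn20 (plus strand) and chr17:34914216-34914515 for Slc44a4 (plus strand).
Boll: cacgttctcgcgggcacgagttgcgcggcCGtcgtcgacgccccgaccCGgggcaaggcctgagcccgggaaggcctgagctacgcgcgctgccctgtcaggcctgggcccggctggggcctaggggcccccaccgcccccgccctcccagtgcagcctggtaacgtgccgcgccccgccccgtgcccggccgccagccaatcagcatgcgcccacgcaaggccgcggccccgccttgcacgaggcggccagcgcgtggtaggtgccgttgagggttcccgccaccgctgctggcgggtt
Slc6a9: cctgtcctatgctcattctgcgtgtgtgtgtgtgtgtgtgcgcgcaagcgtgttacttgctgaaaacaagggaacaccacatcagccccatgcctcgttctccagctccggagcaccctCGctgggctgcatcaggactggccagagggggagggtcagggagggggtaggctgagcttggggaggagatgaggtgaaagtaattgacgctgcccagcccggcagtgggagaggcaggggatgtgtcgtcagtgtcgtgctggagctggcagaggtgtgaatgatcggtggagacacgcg
Dpep1: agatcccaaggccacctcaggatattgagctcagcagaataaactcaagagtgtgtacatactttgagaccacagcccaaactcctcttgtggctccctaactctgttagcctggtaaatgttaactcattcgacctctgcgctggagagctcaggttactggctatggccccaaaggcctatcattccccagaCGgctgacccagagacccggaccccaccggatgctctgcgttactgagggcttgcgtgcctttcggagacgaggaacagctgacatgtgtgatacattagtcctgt
Ptpn20: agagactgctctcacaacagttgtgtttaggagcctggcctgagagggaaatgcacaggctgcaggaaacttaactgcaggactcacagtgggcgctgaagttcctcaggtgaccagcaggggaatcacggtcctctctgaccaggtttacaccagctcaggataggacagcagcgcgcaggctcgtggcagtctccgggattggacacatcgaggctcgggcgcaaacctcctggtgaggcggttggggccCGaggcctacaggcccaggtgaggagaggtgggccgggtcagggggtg
Slc44a4: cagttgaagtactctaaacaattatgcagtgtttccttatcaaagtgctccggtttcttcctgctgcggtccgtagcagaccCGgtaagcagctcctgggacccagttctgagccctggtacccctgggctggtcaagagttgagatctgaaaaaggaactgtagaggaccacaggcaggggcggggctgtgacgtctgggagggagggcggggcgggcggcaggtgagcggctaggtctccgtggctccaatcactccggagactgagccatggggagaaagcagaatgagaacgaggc

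Boll, which encodes an RNA-binding protein of germ cells, had the densest window, with 32 listed CpGs at a mean of 40.5%, of which 16 had an overall mean of 35 to 65% and 2 stayed in the band in all libraries. These 2 CpGs, at positions 55362929 and 55362948 of chromosome 1, had means of 46.4% and 49.4%. Their mean in HEM at 13 months had a lowest value of 38.6%, a median of 46.4% and a highest value of 55.5%, against 50%, 56.6%, 53.2% and 48.7% in WT. At 3 months it was 41.7%, 50%, 39.6% and 45.5% in HEM, against 49.6%, 48.1%, 50.6% and 47.5% in WT. The HEM and WT values overlapped at both ages. Across the whole Boll window the mean was 40.3% ± 5.84 in HEM (SD, n = 8), against 41.5% ± 0.946 in WT (SD, n = 4) at 13 months, and 39.0% ± 3.31 in HEM (SD, n = 4), against 41.4% ± 2.69 in WT (SD, n = 4) at 3 months.

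The other 4 printed windows were less dense. Slc6a9, the glycine transporter gene, had 10 listed CpGs with a window mean of 49.3%, and its CpG in capitals averaged 48.9%. Slc44a4, of the choline transporter-like family, had 10 CpGs with a window mean of 41.1%, and the CpG in capitals averaged 52.1%. Ptpn20, a tyrosine phosphatase gene, had 9 CpGs with a window mean of 60.1%, and the CpG in capitals lay 3 bases past the gene start at 48.5%. Dpep1, a membrane dipeptidase gene, had 7 CpGs with a window mean of 57.3%, and its CpG averaged 49.4%. Around Proz, encoding a coagulation protein, the CpG in the band averaged 45.6% while the window mean was 72.0%, so the neighbours were mostly higher.

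Levels of the 1103 CpGs gathered around the middle of the band, where the rule itself puts them. Over all autosomal CpGs there was no such peak: 12448 had a mean of 45 to 50%, 13707 of 50 to 55% and 17301 of 60 to 65%. The next values describe the 1103. Their means over the 20 libraries ran from 42.2% to 59.4% with a median of 50.2%, and 1029 of them (93.3%) had a mean of 45 to 55%. The SD over libraries had a median of 6.86 points, from 3.01 to 9.99, against 11.3 points for the 79450 CpGs of intermediate mean that left the band. The rule itself limits that spread. The least variable was at 85147956 on chromosome 1, 7245 bp from Gm38510, with values from 49.1% to 61.0%. The most variable was at 106939688 on chromosome 12, 171393 bp from Gm52008, with values from 35% to 64.7%.

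Many CpGs were close to the limits. A value within 1 point of a limit occurred in 500 of the 1103, and 19 stayed within 40 to 60% in every library. CpGs that touched the limit of 35% included those at 153346025 of chromosome 1 and 33217831 of chromosome 3, nearest Lamc1 and Pex5l. Just outside, 2982 CpGs left the band in 1 library only, 1412 of them below it and 1570 above, and 579 did so by less than 1 point. The nearest misses were at 63616496 of chromosome 3 (34.99% in HEM replicate 8 at 13 months), 59082242 of chromosome 18 (65.02% in HEM replicate 1 at 13 months) and 163306858 of chromosome 2 in Tox2 (65.03% in HEM replicate 6 at 13 months). In the band in 18 libraries were 4827 CpGs, and in 17 libraries 6309.

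**Figure D1:**
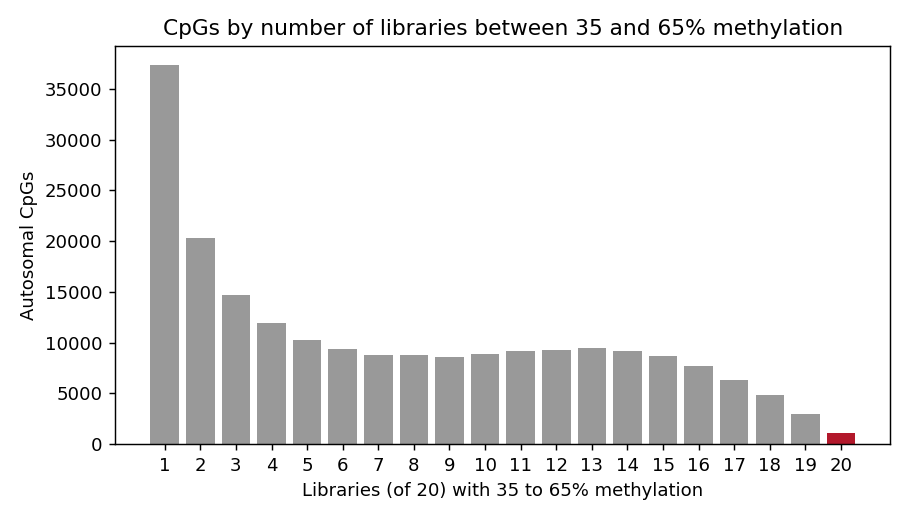
Number of autosomal CpGs (vertical axis) by the number of libraries, of 20, in which their methylation was 35 to 65% (horizontal axis; CpGs with none are left out). The red bar is the 1103 CpGs described here, and the bar for 19 libraries holds 2982.

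The library means over the 1103 CpGs ran from 46.0% to 52.7%, a spread that the rule limits, and over all CpGs of intermediate mean they ran from 43.3% to 57.0%. The mean was 50.6% ± 2.22 in HEM (SD, n = 8), against 50.9% ± 0.785 in WT (SD, n = 4) at 13 months, and 49.6% ± 0.287 in HEM (SD, n = 4), against 49.6% ± 1.17 in WT (SD, n = 4) at 3 months. HEM replicate 8 at 13 months had the lowest mean, 46.0%, and the other 19 libraries were at 48.7% to 52.7%. That library held the lowest value at 161 of the 1103 CpGs, where the median library held it at 48. Its mean over all autosomal CpGs was also the lowest, at 29.1%, where the others ran from 30.1% to 31.8%. No pair of libraries was alike: mean absolute differences over all autosomal CpGs ran from 3.17 to 5.16 points and over the 1103 from 6.66 to 9.72.

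**Figure D2:**
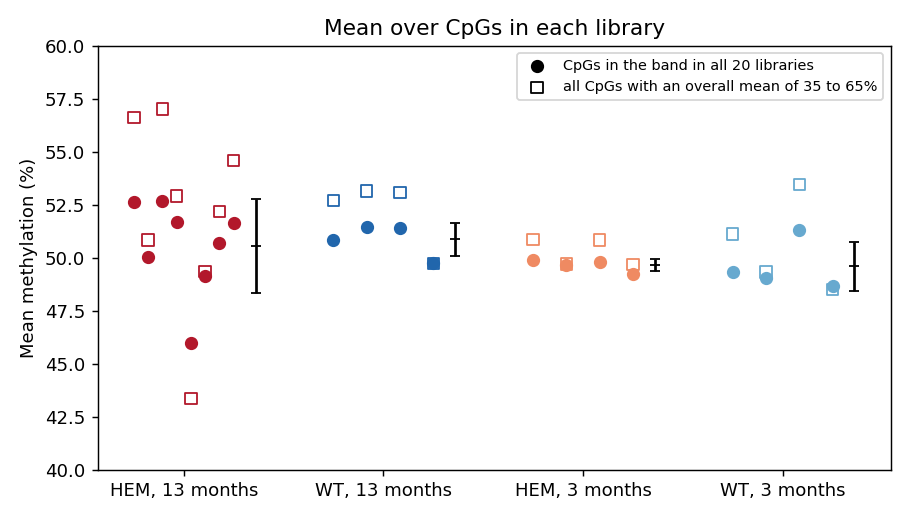
Mean methylation in percent of each library, by group (8, 4, 4 and 4 libraries). Filled circles are the mean over the 1103 CpGs, open squares the mean over all CpGs with an overall mean of 35 to 65%, and black bars the group mean of the filled circles with its SD; HEM replicate 8 at 13 months is the lowest of both, at 46.0% and 43.3%.

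Most of the 1103 CpGs had no other CpG of the set within 500 bp. Joining CpGs of the set within 500 bp of the next gave 1054 runs, of which 1010 held a single CpG (91.6% of the 1103), 40 held 2, 3 held 3 and 1 held 4. The median distance between adjacent ones was 696522 bp. They were not isolated from other intermediate CpGs, since 57.8% of the other CpGs 2 to 10 bp away had a mean of 35 to 65%. Only 23 of the 1103 (2.09%) had no other listed CpG within 500 bp. The 20 runs with the most are named here, those of equal size in order of position. The run of 4 lay in Gnas, the gene of the stimulatory G protein alpha subunit and its overlapping imprinted transcripts, at chr2:174298139-174298437. The runs of 3 lay in Eya2, a transcriptional coactivator with phosphatase activity (chr2:165708428-165708498), in Rbm20, a splicing factor known from heart muscle (chr19:53838917-53839104), and between genes at chr18:76556368-76556488, 244620 bp from Smad2.

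In Gnas the mean of the 4 CpGs in HEM at 13 months had a lowest value of 41.9%, a median of 48.5% and a highest of 55.3%, against 52.8%, 44.4%, 50.6% and 47.5% in WT. At 3 months it was 50.7%, 47.8%, 45.04% and 44.0% in HEM, against 47.9%, 47.6%, 52.0% and 41.0% in WT. The 4 groups overlapped, and 12 of 14 other CpGs listed within 500 bp also had means of 35 to 65%. The run in Gnas thus lay among CpGs mostly of intermediate mean. Around the run on chromosome 18, 2 of the 3 other CpGs had such means, and around that in Eya2 3 of the 5 did, counts too small to set Gnas apart. In Eya2 the 3 CpGs averaged 50.4% ± 4.11 in HEM (SD, n = 8), against 52.8% ± 4.71 in WT (SD, n = 4) at 13 months, and 53.9% ± 3.51 in HEM (SD, n = 4), against 54.2% ± 3.15 in WT (SD, n = 4) at 3 months. All 6 other CpGs around the run in Rbm20 had means of 35 to 65%, from 36.5% to 64.9%. That run averaged 51.9% ± 4.62 in HEM (SD, n = 8), against 54.2% ± 5.66 in WT (SD, n = 4) at 13 months, and 49.6% ± 6.36 in HEM (SD, n = 4), against 49.2% ± 1.54 in WT (SD, n = 4) at 3 months.

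**Figure D3:**
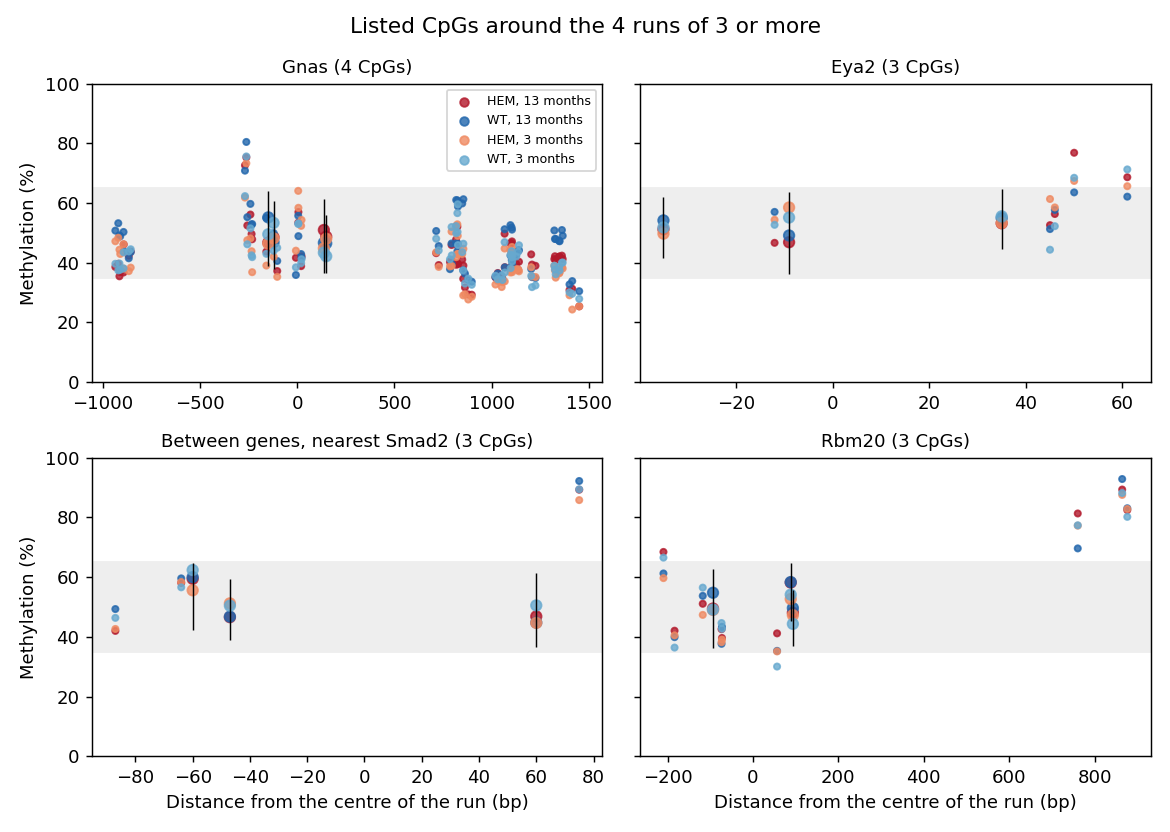
Methylation in percent (vertical axis) of every listed CpG around the runs of 3 or 4, by distance in bp from the centre of the run. Points are group means (large for CpGs in the band in all 20 libraries, small for other listed CpGs), black lines run from the lowest to the highest library, and the grey area is 35 to 65%; in Gnas, 12 of the 14 other CpGs within 500 bp had overall means inside the grey area.

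The 16 named runs of 2 lay in the genes Boll, Obsl1, Rab17, Rxra, Hmcn2, Snph, Mylk2, Blcap with Nnat, Sema6c, Bicdl1, Pom121 and Rab11fip5, or between genes nearest Fam124b, Grik3, Med13l and Dysf. The last 4 were 19207, 5866, 250319 and 165825 bp from those genes. Their neighbourhoods differed widely. Around the run in Obsl1, a cytoskeletal adaptor gene, 14 of 17 other CpGs had means of 35 to 65%, whereas around the run in Rxra, a nuclear receptor gene, 2 of 9 did. Around Boll 23 of 63 did, with means down to 0.0997%. Across 1 Mb windows, 680 of 2410 with a listed CpG held at least 1 of the 1103. The highest count was 8, reached on chromosome 2 from 165 Mb, where Eya2 lies, and on chromosome 15 from 79 Mb. Per 1000 listed CpGs these windows held 4.92 and 3.69, whereas that on chromosome 6 from 84 Mb, with 6 among 425, held 14.1. Per 10000 listed CpGs the chromosomes held from 5.42 (chromosome 16) to 12.1 (chromosome 4).

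Both strands gave intermediate values where both were listed. The partner position on the other strand was listed for 135 of the 1103. Its overall mean was 35 to 65% at 135 of 135, against 86.8% of the partners of the comparison set. The rule favours that contrast and it is no measure of strand agreement. Means of the 1103 ran from 42.2% to 59.4%, whereas those of the comparison set reached the limits of the band. There a small strand difference puts a partner outside. The median difference between strands was 2.4 points, against 2.9 in the comparison set, and the largest 12.0, against 60.6. In 6 CpGs both strands were in the band in all libraries. The partners of the 1103 stayed in it in a median of 17 libraries, from 10 to 20. These 6 were in Rab11fip5, Reep3, Gm40881 and Gcnt4 and nearest Dysf and Etnk1.

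Neighbouring CpGs were less often intermediate with distance. Of other CpGs 2 to 10 bp away, 57.8% had a mean of 35 to 65%, against 62.6% around the comparison set. The share was 46.3% against 54.7% at 11 to 50 bp, 36.5% against 44.6% at 51 to 200 bp, and 19.1% against 31.4% beyond 200 and up to 500 bp. At each distance the share was thus lower around the 1103 CpGs than around the comparison set. Beyond 200 and up to 500 bp the median neighbour was at 28.8%, against 46.0% around the comparison set. Neighbours share reads and fragments, and the 1103 CpGs themselves were left out of both counts. Leaving them out lowers the share around the 1103, of which 26 adjacent pairs were 2 to 50 bp apart and 17 were 51 to 500 bp apart. The contrast with the comparison set was not tested.

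**Figure D4:**
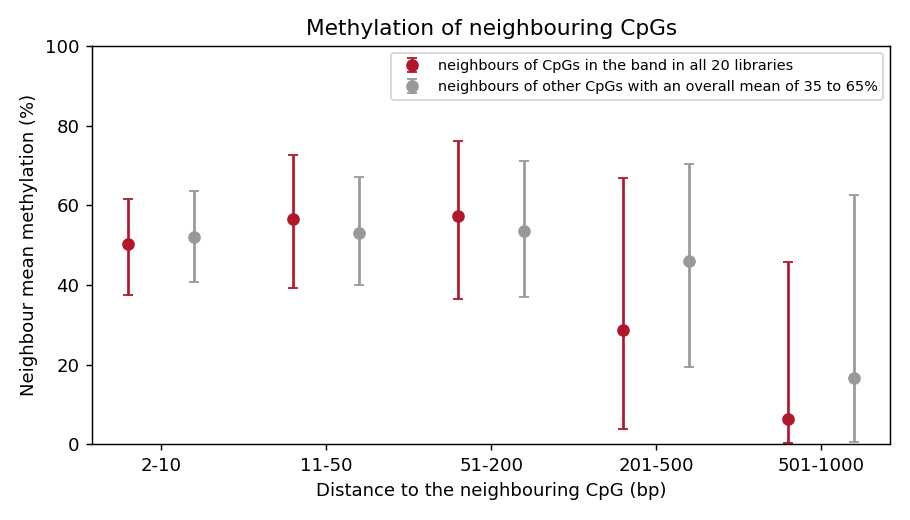
Mean methylation in percent of neighbouring CpGs (points are medians, bars the middle 50% of neighbours) by their distance in bp, for the 1103 CpGs in red and for other CpGs with an overall mean of 35 to 65% in grey. At 2 to 10 bp the medians were 50.3% and 52.0%, and beyond 500 and up to 1000 bp 6.22% and 16.6%.

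Most lay inside genes, but less often than listed CpGs at large. Of the 1103, 584 (52.9%) were inside a protein-coding gene, against 59.96% of the comparison set and 71.4% of all autosomal CpGs. A further 113 (10.2%) lay only in an annotated gene of another type, against 8.77% and 5.96%, and 406 (36.8%) lay outside annotated genes, against 31.3% and 22.6%. More than 100 kb from any coding gene were 117 (10.6%), against 6.69% and 3.93%, and the farthest was at 102963331 of chromosome 1, 1805009 bp from Cdh20, with a mean of 51.3%. Within 1 kb of a gene start were 7.37%, against 7.89% of the comparison set and 42.8% of all CpGs. A median of 4 other listed CpGs lay within 500 bp, as in the comparison set, against 22 for all autosomal CpGs. These shares are descriptions of positions that share fragments, with no test.

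The CpGs inside coding genes were spread over 526 genes, 439 of which held 1. Those with the most were Eya2 and Camta1, a calmodulin-binding transcription factor, with 5 each. The 6 genes with 4 were Gnas, Rbm20, Rbfox3 (the neuronal splicing factor NeuN) and the overlapping annotations Gm37013, Gm38666 and Gm38667 of chromosome 18, which share the same 4 CpGs. In Camta1 the 5 CpGs lay over 608687 bp, in Rbfox3 the 4 over 326120 bp and in Gnas the 4 over 298 bp, so Gnas alone of these held all of them in a single run. The Camta1 CpGs had means of 50.04% to 53.9%, among 131 CpGs of intermediate mean of the 807 listed in that gene. The 14 genes with 3 were Plch2, a phospholipase C gene, the muscle calcium channel gene Ryr1, the neuronal calcium channel gene Cacna1i, Fignl2 and 10 overlapping protocadherin gamma genes, cell adhesion genes that share the same stretch of chromosome 18.

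Of the cell type marker lists, neurons held 4, all in Rbfox3 (0.363% of the 1103, against 0.0837% of all CpGs). Oligodendrocytes held 1, in Sox10 (0.0907%, against 0.0489%), and vessels 1, in Pdgfrb (0.0907%, against 0.0377%). Rbfox3 is a long gene with 618 listed CpGs, where the whole neuron list has 928, and these small counts were not tested. The 15 microglia genes, the 8 astrocyte genes and the 10 genes of leukocytes and border macrophages held none, among 448, 293 and 62 listed CpGs. Since 0.0995% of all autosomal CpGs belong to the set, a count of none in lists of that size is near the background. By family, zinc finger genes named Zfp held 6 (0.544% of the 1103, against 1.29% of all CpGs), protocadherins 4 (0.363%, against 0.128%), vomeronasal receptors 2 (0.181%, against 0.0276%) and olfactory receptors 1 (0.0907%, against 0.0211%). These counts are small and were not tested. Clustered homeobox genes held none among 2828 listed CpGs, of which 12 had a mean of 35 to 65%, and histocompatibility genes named H2- held none among 525.

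Imprinted loci held a larger share of these CpGs than of all CpGs, but a small one. Within 50 kb of the genes of 22 imprinted loci lay 16 of the 1103 (1.45%), and the same windows held 0.409% of all autosomal CpGs. Per 10000 listed CpGs there were 35.3 in these windows and 9.85 elsewhere. CpGs of intermediate mean were themselves more frequent there, 800 of 4530 (17.7%) against 7.22% elsewhere. Of those, 2.0% were in the band in every library, against 1.36% elsewhere. Inside the listed genes lay 12 of the 16.

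Gnas held 4 and Nnat 2, the pair of Nnat, the neuronatin gene, being inside Blcap, at 157561611 and 157561620 of chromosome 2. Their mean in HEM at 13 months had a lowest value of 36.5%, a median of 42.9% and a highest of 62.1%, against 41.9%, 41.9%, 42.5% and 54.7% in WT. At 3 months it was 43.0%, 48.2%, 39.8% and 43.5% in HEM, against 39.9%, 49.8%, 47.9% and 51.3% in WT. The groups overlapped at both ages. Slc38a4, an amino acid transporter gene, held 2, at 97049990 and 97050009 of chromosome 15, with means of 47.0% and 49.8%. The Prader-Willi region held 1 each in Magel2 and Peg12, at 52.4% and 44.2%. Mest held 1 at 50.04% and Nap1l5 inside Herc3 held 1 at 48.3%.

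The last 4 lay outside the listed genes: 1 was 1244 bp from Grb10 at 51.4%, 1 was 25814 bp from Peg3 in the zinc finger gene Zim1 at 52.6%, 1 was 28689 bp from Dio3 of the Dlk1-Meg3 cluster at 51.9%, and 1 was 31023 bp from Cdh15 in Acsf3 at 50.3%. None of the other CpGs within 200 bp of those in Zim1, Acsf3 and Peg12 had a mean of 35 to 65%, and their medians were 92.0%, 85.0% and 16.5%. None was found at Gpr1-Zdbf2, Mcts2-H13, Peg10-Sgce, Inpp5f, H19-Igf2, Kcnq1ot1, Rasgrf1, Plagl1, Zrsr1-Commd1, Peg13-Trappc9, Airn-Igf2r and Impact. At Plagl1, a zinc finger gene, 48 of 82 listed CpGs had a mean of 35 to 65% all the same, and at the Kcnq1ot1 locus 79 of 567. Neighbours within 2 to 200 bp of the 16 had such means in 68.5% of cases, against 40.1% for neighbours of the other 1087. A neighbour shared by several of these CpGs, as in Gnas, Nnat and Slc38a4, was counted for each of them.

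**Figure D5:**
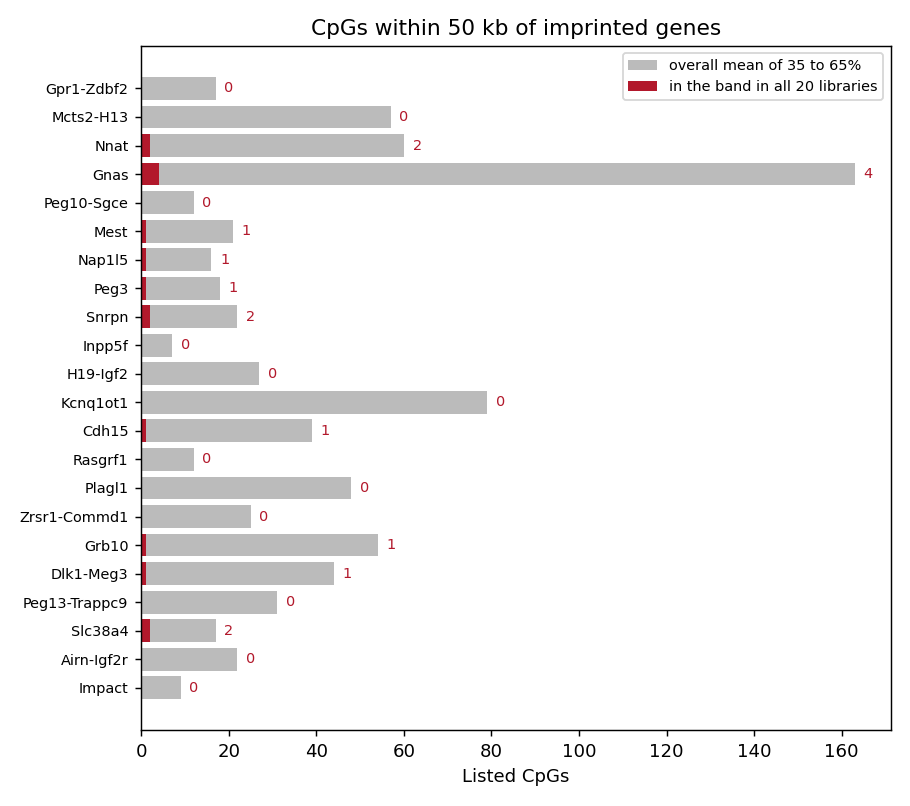
Number of listed CpGs within 50 kb of the genes of each imprinted locus that had an overall mean of 35 to 65% (grey bars) and that stayed in that band in all 20 libraries (red bars and numbers). Gnas held 4 of 163, and 12 loci held none, among them Kcnq1ot1 with 79 CpGs of intermediate mean and Mcts2-H13 with 57.

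The count at imprinted loci was lowered most by 1 library. Without HEM replicate 8 at 13 months 1377 CpGs were in the band in all other libraries, 34 of them (2.47%) near imprinted genes: 10 at Mcts2-H13 where there had been none, 8 instead of 4 at Gnas, 2 instead of 1 at Grb10, and 2 at Plagl1 and 1 at Peg13-Trappc9 where there had been none. Leaving out any other library gave 16 to 20. Without WT replicate 7 at 13 months Gnas held 7, and without HEM replicate 11 at 13 months the Cdh15 locus held 3. Over the 800 imprinted CpGs of intermediate mean HEM replicate 8 at 13 months averaged 34.9%, against 40.2% to 49.4% in the other 19. In it 59.0% of the 800 were below 35%, against 11.6% to 38.0% in the others. Of the 20 loci with at least 10 such CpGs, it was the lowest library at 19, the exception being Nap1l5. At Grb10 it was at 27.8%, and the next library was at 37.1%. It was also low elsewhere, at 43.4% over the 79753 other CpGs of intermediate mean, so the low values were not limited to imprinted loci.

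With that library, the 800 CpGs averaged 45.5% ± 4.70 in HEM (SD, n = 8), against 46.7% ± 1.05 in WT (SD, n = 4) at 13 months. Without it HEM averaged 47.0% ± 2.08 (SD, n = 7). At 3 months they averaged 44.9% ± 1.53 in HEM (SD, n = 4), against 44.0% ± 2.77 in WT (SD, n = 4). The HEM and WT ranges overlapped at both ages with and without it. Whether a difference in cells, DNA quality or processing set this library apart was not tested.

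Genotype and age were compared at each CpG with limma over all CpGs of 5 to 95% mean, on the log2 ratio of the methylated to the unmethylated share, and called at a Benjamini-Hochberg adjusted p under 0.05 and a difference of at least 10 points. The rule kept all values within 30 points of each other, so the counts describe these CpGs and say nothing of how well they resist change. Between HEM and WT at 13 months 0 of the 1103 were called, where 0.000881% of all CpGs tested were, and 5 had an unadjusted p under 0.05, where 5.82% of all did. At 3 months 0 were called (0% of all CpGs) and 0 had an unadjusted p under 0.05, where 4.53% of all did. Between 13 and 3 months 0 were called in WT (0.0183% of all) and 0 in HEM (0.0305% of all), with 2 and 13 at an unadjusted p under 0.05, where 4.79% and 10.4% of all had one. The ages were deposited as separate library sets, and an effect of age cannot be told apart from one of the set. No interaction of genotype with age was called (0.000224% of all), with 12 at an unadjusted p under 0.05, where 6.28% of all had one. With the percentages themselves in place of log2 ratios the counts at an unadjusted p under 0.05 were 52, 38, 53, 98 and 61 in the same order, or 4.71%, 3.45%, 4.81%, 8.88% and 5.53% of the 1103, where 5.41%, 4.71%, 4.90%, 10.96% and 6.10% of all CpGs had one, and 0 of the 1103 were called.

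No 1 kb tile that holds one of these CpGs was called in limma either, of 853 tested at 13 months and 865 at 3 months, and 0% of all tiles were called. An unadjusted p under 0.05 was found in 11 and 9 of them (1.29% and 1.04%), where 5.52% and 4.5% of all tiles had one. With the percentages themselves in place of log2 ratios it was found in 37 and 36 (4.34% and 4.16%), where 5.12% and 4.34% of all tiles had one.

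The single CpGs of smallest p show how far values moved inside the band. Picking by p among all CpGs of the set favours groups that do not overlap. Absence of overlap at a picked CpG is thus a description and no sign of an effect. How many CpGs of the set had groups without overlap is not given here. A CpG at 13043438 of chromosome 7 in Mzf1, a zinc finger gene of blood cells, had in HEM at 13 months a lowest value of 42.7%, a median of 53.4% and a highest of 63.8%, against 38.5%, 48.7%, 41.4% and 39.6% in WT. At 3 months it was at 40.8%, 40.2%, 40% and 47.2% in HEM, against 57.7%, 58.8%, 54.0% and 51.4% in WT. HEM was thus mostly higher at 13 months and lower in all 4 libraries at 3 months, and the 3-month groups did not overlap, while the 13-month groups did. The interaction was 24.8 points (limma adjusted p = 0.733), and it was not called.

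The CpG at 29324722 of chromosome 10 in Echdc1, an enzyme gene of acyl-CoA metabolism, picked in the same way, had differences of the opposite sign. It averaged 45.4% ± 4.56 in HEM (SD, n = 8), against 59.6% ± 5.98 in WT (SD, n = 4) at 13 months, and 52.4% ± 5.23 in HEM (SD, n = 4), against 43.3% ± 6.55 in WT (SD, n = 4) at 3 months. At 13 months the HEM libraries had a lowest of 37.2%, a median of 46.6% and a highest of 51.3%, against 59.3%, 51.2%, 63.8% and 64.0% in WT, so the groups overlapped slightly. The difference at 13 months was -14.1 points (limma adjusted p = 0.8289) and the interaction -23.1 points (limma adjusted p = 0.752). Other CpGs of smallest p between HEM and WT at 13 months were in Tecta and Uimc1 and nearest Lhx5 and Parp12, at 12.2, -12.7, -12.2 and -12.8 points.

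At 3 months the CpGs of smallest p between HEM and WT, besides that in Mzf1 at -13.4 points, were nearest Brd1 and Mup5 and in Sync and Ecel1, at 13.1, 12.0, 12.9 and -11.6 points, each with a limma adjusted p of 0.985. The one 16482 bp from Brd1 was at 51.9%, 59.3%, 57.8% and 63.0% in HEM, against 43.0%, 46.3%, 44.8% and 45.5% in WT. These 3-month groups did not overlap, which the picking by p favours. At 13 months this CpG averaged 54.0% ± 5.66 in HEM (SD, n = 8), against 53.7% ± 10.7 in WT (SD, n = 4).

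Between ages in HEM the CpG of smallest p lay 600 bp from Fscn1, the gene of an actin-bundling protein, at 142959755 of chromosome 5. Its 13-month HEM values had a lowest of 51.9%, a median of 58.3% and a highest of 62.3%, against 3-month HEM values of 42.5%, 46.9%, 41.2% and 37.7%. The 2 ages did not overlap, which the picking by p favours, and the difference was 15.6 points (limma adjusted p = 0.367). In WT the same CpG averaged 48.4% ± 7.20 (SD, n = 4) at 13 months and 48.8% ± 2.99 (SD, n = 4) at 3 months. The next were in Celsr1 and Cryab and nearest Foxb2 and Ipo5, at -14.4, 14.0, 14.2 and 12.3 points. Between ages in WT they were in Echdc1, Sync and Gpc1 and nearest Dysf and Olfr331, at 16.2, 15.5, 13.8, -14.7 and 13.4 points, each with a limma adjusted p of 0.975. The other interactions of smallest p were nearest Ipo5 and in Ace and Celsr1, at 18.5, -16.7 and -18.1 points. None was called.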

How the data were processed

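The 20 libraries are reduced representation bisulfite libraries. The submitters' processing notes name Bowtie2, methylKit and the mm10 build, with no versions. The deposited files hold, per the labels and their values, the percent methylation of each CpG in each library. They give no read counts, so the depth is unknown, intervals that need it are not given, and coverage minimums are not given in the sources used here. Within an age all libraries listed the same positions, 1151247 at 13 months and 1234494 at 3 months. A further 21 value columns in tables of the whole series were not used, because they name no library.

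CpGs were selected at 35 to 65% in all 20 files and placed on RefSeq genes of GRCm38.p6, the assembly of mm10. Runs join CpGs within 500 bp, and imprinted loci are 22 gene groups with 50 kb either side. The gene Nespas was not in that annotation. For the comparisons each percentage, with 1 added to the methylated and the unmethylated share, became a log2 ratio of these shares, which limma 3.58.1 (R 4.3.3) fitted with moderated variances. P-values were adjusted by Benjamini and Hochberg's method over all CpGs or 1000 bp tiles of at least 3 CpGs with a mean of 5 to 95%. Tiles needed a difference of at least 5 points and interactions the adjusted p alone. The fit was tested on simulated data. Figures and tables used Python 3.11.15, numpy 2.4.6, pandas 2.3.3 and matplotlib 3.10.9. Nothing in the labels says whether libraries are separate mice beyond the design text, so p-values measure the spread between these libraries.

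The CpGs, gene lists and tests were chosen with earlier results of these data known. Named were the 20 runs with most CpGs, every imprinted locus, the 5 CpGs of smallest p in each comparison and the CpGs nearest the limits of the band. One CpG nearest a limit is not reported here.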

Additional observations from a re-analysis of the deposited data

Results flagged for a closer look

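Means per library over the 1103 CpGs and over the 20 named runs were searched, group by group, for a value far from the others. Of 84 groups tested 2 held one (2.38%), and chance gives about 1 in 20. In the run of 2 CpGs in Obsl1, a value of 60.8% in WT replicate 5 at 3 months stood apart from 42.7% to 44.0% in the other 3. In the run of 2 CpGs in Nnat and Blcap, a value of 54.7% in WT replicate 7 at 13 months stood apart from 41.9% to 42.5% in its group. Both values are inside the band of 35 to 65% that chose the CpGs.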

How the results depend on the processing

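The number of CpGs depended on the width of the band: 19 at 40 to 60% and 8111 at 30 to 70%, against 1103. The runs of 3 or more were then 0 and 262, the share near imprinted genes at 40 to 60% was 0%, and the share inside annotated genes at 40 to 60% was 57.9%. With 1000 bp either side of genes that share was 66.8%, against 63.2%. Leaving out 1 library in turn gave 1154 to 1463 CpGs, 1.16% to 2.47% near imprinted genes and 4 to 8 runs of 3 or more. The count of runs was 7 without HEM replicate 7 or WT replicate 7 at 13 months or HEM replicate 2 at 3 months, and 8 without HEM replicate 8 at 13 months. Averaging strands gave 1197 CpGs and 6 runs. No CpG or tile of the set was called under any alternative, with 0 in each leave-one-out fit, and the smallest limma adjusted p was 0.148. Over all CpGs the leave-one-out fits called 3 to 45 at 13 months (most without WT replicate 1), 0 to 57 at 3 months (most without WT replicate 1), 63 to 181 for age in WT (most without WT replicate 6 at 13 months), 114 to 195 for age in HEM (most without HEM replicate 10 at 13 months) and 0 to 6 for the interaction (most without WT replicate 6 at 13 months).

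With the replicate number as a block, 0 of the 1103 CpGs were called in the 4 comparisons that had such a fit. Over all CpGs the block left 0 calls at 13 months, against 4 without it, 0 between ages in HEM, against 136, and 0 for the interaction, against 1. Most numbers occurred in a single group, so few libraries informed these fits, and 0 calls in them say little about the calls without the block. For age in WT no such fit was possible because the groups share a single number. Over all pairs of groups, same-numbered libraries had correlations of deviations from -0.152 to 0.224, and the numbers were not taken as pairs in the main fits. At 13 months each of the 3 shared numbers correlated best with its own, at 0.103, 0.224 and 0.0480. The highest correlations with other numbers were 0.0109, -0.0359 and 0.0115. These values do not settle whether HEM and WT libraries of the same number are pairs at 13 months.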
